A study of Arabidopsis thaliana with 4 samples.

Results

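Jacalin-related lectins are plant proteins built from one or more jacalin domains, a fold that binds sugars such as mannose. In Arabidopsis thaliana they form a large family, and several members bind other proteins of the chemical defence system. JAL22, JAL23, JAL31 and JAL33 belong to the complex that forms around PYK10, a beta-glucosidase stored in ER bodies, compartments of the endoplasmic reticulum, of roots and seedlings, when tissue is broken. Others resemble myrosinase-binding proteins, which associate with the enzymes that break down glucosinolates.

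The family was followed by a list of 39 loci, and a locus was taken as a member with values where it occurred in any of 4 deposited lists of genes increased in culture. That held for 16 of the 39 loci, out of 2773 loci in all lists. The groups, each 1 library of total RNA, were lbd16-2 leaf explants on day 4, lbd16-2 leaf explants on day 0, Col-0 wild-type leaf explants on day 4 and Col-0 wild-type leaf explants on day 0. All came from the first leaf pair of plants raised for 12 days at 22 °C with 16 h of light and 8 h of darkness. The day 0 explants had no time in culture, and the day 4 explants, labelled as bearing callus, had been kept in continuous darkness on callus inducing medium, which contains auxin and cytokinin. LBD16, the auxin-induced transcription factor gene for which the mutant is named, had 518 normalised reads on day 4 and 34.3 on day 0 in lbd16-2, against 981 on day 4 and 20.9 on day 0 in wild type. Reads over a gene do not show whether its transcript is intact, so every statement on lbd16-2 rests on the label.

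Levels are normalised reads, that is reads divided by the size factor of the library. The size factors were 1.68 for lbd16-2 on day 4, 1.08 for lbd16-2 on day 0, 1.41 for wild type on day 4 and 1.43 for wild type on day 0. With 1 library per group the differences below could not be checked against replicates, and no p-value was computed here. Each range in parentheses is a 95% counting interval and covers the error of counting reads alone. In whole explants, fewer cells of a type and less RNA per cell cannot be told apart.

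The lists held 12 of the 39 loci as increased in both genotypes, JAL22 (AT2G39310) and JAL23 (AT2G39330) in wild type alone, and AT1G60130 and AT5G28520 in lbd16-2 alone. Each genotype's list therefore had 14 members. A gene entered a list when its deposited log2 fold on day 4 exceeded 3, an 8-fold increase. Of all genes tested, 9.18% entered the list in lbd16-2 and 8.91% in wild type. Since listing chose the members, nothing is read from that difference. The members just inside the limit were AT1G60095 and JAL23 in wild type, at log2 folds of 3.02 and 3.24, and the one nearest below it was JAL22 in lbd16-2, at 1.92. The other 23 loci, among them the PYK10-binding protein gene PBP1 (AT3G16420), the myrosinase-binding protein genes MBP1 and MBP2, JAL34, JR1 and the antiviral lectin gene JAX1, were in no list, and their levels were not analysed here.

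Over the 14 members with values in all 4 libraries, the summed level was far higher after culture in both genotypes, and more so in wild type. All 14 were in the wild-type list, JAL22 and JAL23 in it alone, and AT1G60130 and AT5G28520 are left out. The listing thus favours a rise, and a larger one in wild type, so nothing is read from either. The members summed to 6971 normalised reads on day 4 and 656 on day 0 in lbd16-2, against 19628 on day 4 and 195 on day 0 in wild type. The lbd16-2 sum was thus 0.355 times the wild-type sum on day 4 and 3.36 times the wild-type sum on day 0. JAL23 held 49.9% of the lbd16-2 reads on day 0, and without it the ratios were 0.354 on day 4 and 1.94 on day 0. The median day 0 difference over the 14 members was 0.01 on the log2(normalised reads + 1) scale, against 0.13 for all 2175 genes with 4 values. Over its own list the median log2 fold of the members was 5.58 in lbd16-2 and 5.29 in wild type, where the medians of all listed genes were 4.46 and 4.56. The order of the members' medians turned with a pseudocount of 5, to 4.03 in lbd16-2 and 4.42 in wild type, and among members with at least 50 normalised reads on day 4, to 6.27 in lbd16-2 and 7.27 in wild type. On day 0, 7 of the 14 members had 3 reads or fewer in each genotype, so the folds of the low members are bounds more than values.

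**Figure D1:**
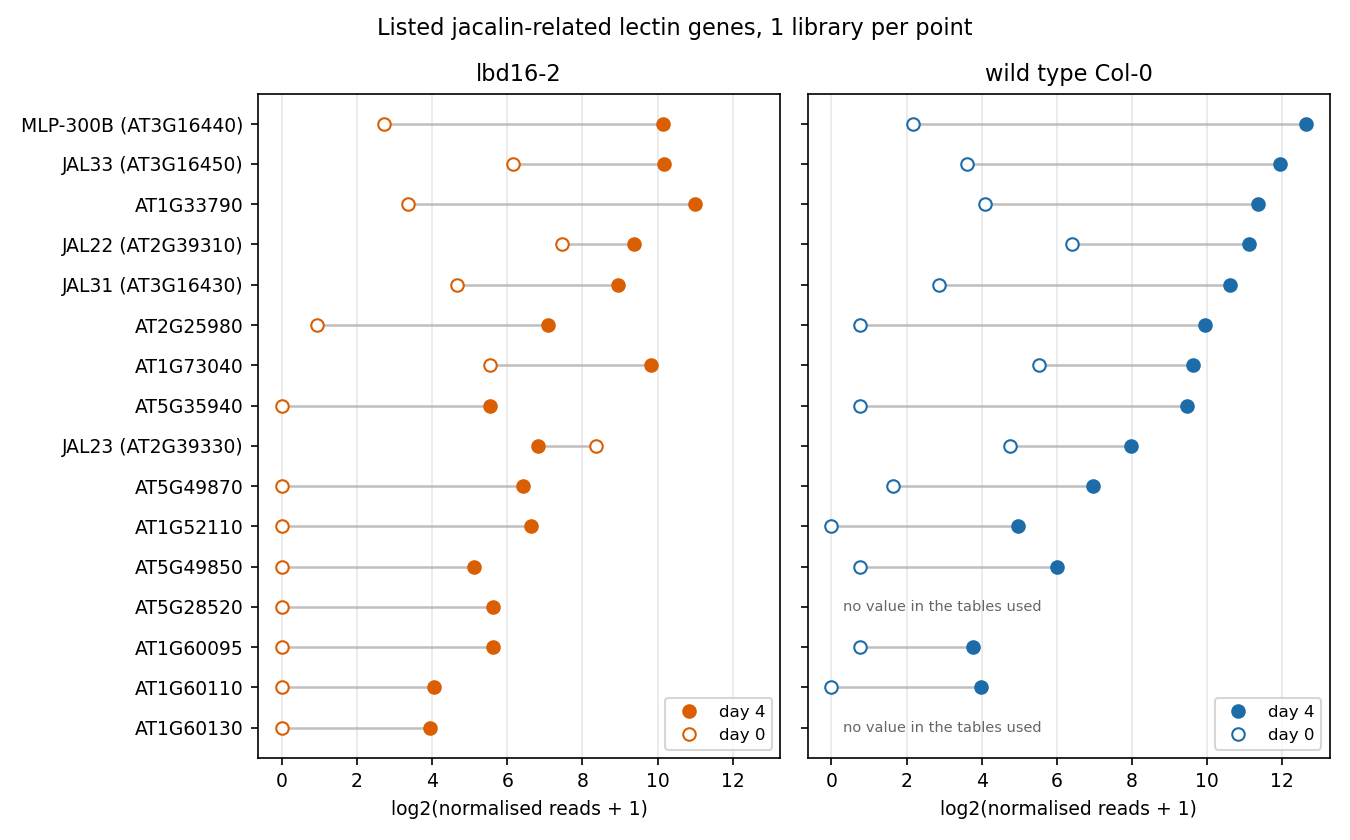
Levels of the 16 listed members on the deposited scale, log2(normalised reads + 1), with lbd16-2 on the left and wild type on the right; filled circles are day 4, open circles day 0, and each point is 1 library. JAL23 is the one member whose day 4 circle lies left of its day 0 circle, in lbd16-2.

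The 3 neighbours JAL31 (AT3G16430), MLP-300B (AT3G16440) and JAL33 (AT3G16450) on chromosome 3 made up the larger part of the reads of the 14 members in cultured wild-type leaves. They took 40.0% of the reads of the 14 members on day 4 in lbd16-2 and 15.1% on day 0, against 60.2% on day 4 and 10.7% on day 0 in wild type. MLP-300B, which encodes a myrosinase-binding-like lectin, had 1139.65 normalised reads on day 4 and 5.57 on day 0 in lbd16-2, against 6336 on day 4 and 3.49 on day 0 in wild type. Both genotypes had next to none of it in fresh leaves, and wild type had far more on day 4. Its fold was 205 (93.9 to 559) in lbd16-2 and 1816 (778 to 5595) in wild type, and the day 4 ratio of lbd16-2 to wild type was 0.180 (0.171 to 0.189). Per kilobase of transcript it was the highest member on day 4 in wild type, at 4877 normalised reads, but was second to AT1G73040 in lbd16-2, at 877 against 1108.

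JAL33, a lectin of the PYK10 complex, had 1157 normalised reads on day 4 and 69.6 on day 0 in lbd16-2, against 3935 on day 4 and 11.2 on day 0 in wild type. The order of the genotypes thus turned round between the days. Its fold was 16.6 (13.2 to 21.2) in lbd16-2 and 352 (217 to 617) in wild type. JAL31, another lectin of that complex, had 495 normalised reads on day 4 and 24.1 on day 0 in lbd16-2, against 1551 on day 4 and 6.28 on day 0 in wild type. It showed the same turn, with a fold of 20.5 (13.9 to 31.6) in lbd16-2 and 247 (129.9 to 541) in wild type. The day 4 ratios of lbd16-2 to wild type were 0.294 (0.279 to 0.310) for JAL33 and 0.319 (0.294 to 0.346) for JAL31.

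JAL22 and JAL23 are a neighbouring pair on chromosome 2, and both proteins belong to the PYK10 complex. JAL22 had 659 normalised reads on day 4 and 173 on day 0 in lbd16-2, against 2205 on day 4 and 83.0 on day 0 in wild type. It was higher on day 4 in both, by 3.80-fold (3.25 to 4.46) in lbd16-2 and 26.6-fold (22.1 to 32.2) in wild type. JAL23 had 112 normalised reads on day 4 and 327 on day 0 in lbd16-2, against 252 on day 4 and 25.8 on day 0 in wild type. The pair parted in lbd16-2: JAL23 was lower after culture there, at 0.341 times its day 0 level (0.284 to 0.409), and 9.76-fold higher after culture in wild type (6.94 to 14.1). Before culture JAL23 was the most abundant member per kilobase in lbd16-2, at 152 normalised reads against 12.0 in wild type, a ratio of 12.7 (9.03 to 18.3) in normalised reads. The day 4 ratios of lbd16-2 to wild type were 0.299 (0.279 to 0.320) for JAL22 and 0.444 (0.370 to 0.531) for JAL23.

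The coding sequences of these neighbours are shown because reads of close relatives can be split or dropped in counting, and the sources used here do not say how the authors handled such reads. Each pair is the 120-base stretch with the fewest differences, from the RefSeq annotation of TAIR10.1, written 5′ to 3′ on the coding strand with capitals where the pair differs.
JAL22: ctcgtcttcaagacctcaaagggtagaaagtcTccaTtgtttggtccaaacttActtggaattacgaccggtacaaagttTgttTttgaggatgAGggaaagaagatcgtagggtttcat
JAL23: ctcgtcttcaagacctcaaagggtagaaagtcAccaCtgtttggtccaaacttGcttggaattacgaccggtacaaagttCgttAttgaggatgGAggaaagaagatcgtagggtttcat
MLP-300B: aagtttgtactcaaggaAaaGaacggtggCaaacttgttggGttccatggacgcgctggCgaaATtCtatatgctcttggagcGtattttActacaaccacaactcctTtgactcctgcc
JAL33: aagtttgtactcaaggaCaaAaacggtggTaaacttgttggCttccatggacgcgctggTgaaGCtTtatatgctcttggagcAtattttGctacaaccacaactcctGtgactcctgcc
JAL31: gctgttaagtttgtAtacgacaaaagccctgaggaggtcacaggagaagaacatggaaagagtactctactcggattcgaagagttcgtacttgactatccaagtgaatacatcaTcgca
PBP1: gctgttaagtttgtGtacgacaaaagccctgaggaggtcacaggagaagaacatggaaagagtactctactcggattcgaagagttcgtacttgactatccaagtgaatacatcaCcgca
JAL22 and JAL23 differ at 7 of the 120 bases and MLP-300B and JAL33 at 11, with no identical run longer than 32 and 17 bases. JAL31 and its unlisted neighbour PBP1 differ at 2, with an identical run of 100 bases. In the nuclear genome, 1.57% of the 50-base exon windows of JAL31 occurred a further time, and 0.0543%, 0.0526%, 0% and 0% of those of JAL22, JAL23, MLP-300B and JAL33. Each window lay within a single exon, so stretches shared across exon junctions were not counted and these shares can be too low. The proteins are 82.0% identical for JAL22 and JAL23, 81.7% for MLP-300B and JAL33 and 85.5% for JAL31 and PBP1. The level of JAL31 is therefore the least certain of the 5, since reads of PBP1 could be counted in it.

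Of these 5 genes all but MLP-300B, whose day 0 interval included 1, differed between genotypes in opposite directions on the 2 days, and the 250 bases before their annotated starts are shown for all 5, 5′ to 3′ on the gene's strand, with TAIR10.1 positions. JAL22 and JAL23 lie on the minus strand and the others on the plus strand. Capitals mark a match to TGTCTC, the core of the auxin response element.
JAL22, chr2:16416846-16417095: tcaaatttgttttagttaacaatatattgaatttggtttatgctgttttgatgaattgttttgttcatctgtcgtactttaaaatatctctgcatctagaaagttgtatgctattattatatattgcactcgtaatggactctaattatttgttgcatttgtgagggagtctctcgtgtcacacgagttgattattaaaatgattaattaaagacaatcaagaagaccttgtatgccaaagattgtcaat
JAL23, chr2:16422159-16422408: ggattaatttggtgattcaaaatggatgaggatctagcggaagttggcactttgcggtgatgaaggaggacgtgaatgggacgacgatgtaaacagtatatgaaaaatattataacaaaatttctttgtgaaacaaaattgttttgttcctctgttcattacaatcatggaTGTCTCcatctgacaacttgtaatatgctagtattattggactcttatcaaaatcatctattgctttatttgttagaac
JAL31, chr3:5581318-5581567: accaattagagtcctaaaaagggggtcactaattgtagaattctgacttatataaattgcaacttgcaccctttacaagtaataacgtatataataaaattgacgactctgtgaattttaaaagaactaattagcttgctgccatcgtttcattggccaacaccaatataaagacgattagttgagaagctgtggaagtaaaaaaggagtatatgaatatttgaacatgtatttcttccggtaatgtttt
MLP-300B, chr3:5585622-5585871: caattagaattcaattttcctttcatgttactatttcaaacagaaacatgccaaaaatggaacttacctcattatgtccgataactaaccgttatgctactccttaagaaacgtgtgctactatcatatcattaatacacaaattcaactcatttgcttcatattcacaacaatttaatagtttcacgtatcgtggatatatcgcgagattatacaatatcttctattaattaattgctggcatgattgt
JAL33, chr3:5588042-5588291: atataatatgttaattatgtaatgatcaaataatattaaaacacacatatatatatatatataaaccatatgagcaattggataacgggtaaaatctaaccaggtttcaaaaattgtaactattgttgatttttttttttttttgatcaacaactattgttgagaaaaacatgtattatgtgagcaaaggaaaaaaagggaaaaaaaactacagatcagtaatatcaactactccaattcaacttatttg
On both strands of these windows, TGTCTC occurred once, 79 bases before the start of JAL23. CACGTG (G-box), TTGACC (W-box) and GCCGCC (GCC-box) occurred in none of the 5. Over all 16 listed members, CACGTG occurred in 1 (6.25%, against 6.49% of 27443 promoters of protein-coding genes), TGTCTC in 1 (6.25%, against 10.9%), TTGACC in 2 (12.5%, against 12.2%) and GCCGCC in 0 (against 1.87%).

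AT2G25980 and AT5G35940, 2 genes for jacalin proteins with no symbol in the annotation, had the lowest ratios of lbd16-2 to wild type on day 4. AT2G25980 had 134 normalised reads on day 4 and 0.928 on day 0 in lbd16-2, against 988 on day 4 and 0.698 on day 0 in wild type. Its day 4 ratio of lbd16-2 to wild type was 0.136 (0.118 to 0.157), and the single reads on day 0 leave its folds at 145 (25.7 to 5746) in lbd16-2 and 1417 (254 to 55999) in wild type. AT5G35940 had 45.8 normalised reads on day 4 and 0 on day 0 in lbd16-2, against 703 on day 4 and 0.698 on day 0 in wild type. Its day 4 ratio of 0.0652 (0.0510 to 0.0822) was the lowest of the 14 members. The proteins of this pair lie on different chromosomes and are 59.4% identical.

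AT1G33790 and AT1G73040 had close levels in both genotypes. AT1G33790, which encodes the longest protein of the 16 at 745 residues, had 2046 normalised reads on day 4 and 9.28 on day 0 in lbd16-2, against 2624 on day 4 and 16.0 on day 0 in wild type. Its fold was 221 (119.8 to 460.5) in lbd16-2 and 163.5 (109 to 258) in wild type, and the day 4 ratio was 0.780 (0.744 to 0.817). Of its 50-base exon windows 3.15% occurred elsewhere in the genome, more than for any other of the 16, so its counts may include reads of relatives. AT1G73040, which encodes the shortest protein at 176 residues, had 903 normalised reads on day 4 and 45.5 on day 0 in lbd16-2, against 789.6 on day 4 and 44.7 on day 0 in wild type. Its fold was 19.9 (15.0 to 27.0) in lbd16-2 and 17.7 (13.7 to 23.1) in wild type. The counts of AT1G73040 are uncertain, because the gene overlaps VPS46.2 on the other strand and the sources used here do not say whether counting used strand.

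The remaining members had at most 125 normalised reads on day 4 in either genotype. AT5G49870 had 83.8 normalised reads on day 4 in lbd16-2 and 125 in wild type, a ratio of 0.673 (0.535 to 0.845), and AT5G49850, of the same array on chromosome 5, had 33.9 in lbd16-2 and 63.0 in wild type, a ratio of 0.538 (0.379 to 0.759). On day 0 both had 0 reads in lbd16-2, against 3 and 1 in wild type. AT1G52110 went the other way, with 98.1 normalised reads on day 4 in lbd16-2 and 30.4 in wild type, a ratio of 3.22 (2.29 to 4.62), and 0 reads on day 0 in either genotype. The neighbours AT1G60095, AT1G60110 and AT1G60130 on chromosome 1 were all listed. AT1G60095 had 48.2 normalised reads on day 4 in lbd16-2 and 12.7 in wild type, a ratio of 3.78 (2.25 to 6.70), while AT1G60110 had 15.5 in lbd16-2 and 14.9 in wild type, a ratio of 1.04 (0.563 to 1.94). AT1G60130 reached 14.3 normalised reads on day 4 in lbd16-2 and AT5G28520 reached 48.2, both from 0 reads on day 0, which makes them at least 5.13-fold and 17.3-fold higher against a floor of 3 reads. No wild-type value of these 2 was used here. The counts of AT5G49850 and AT1G60130 are uncertain too, since in the annotation AT5G49850 overlaps AT5G49840 on the other strand and AT1G60130 overlaps AT1G08307 on the same strand.

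By place, where 41.0% of the 39 loci were listed, the chromosome 3 array from PBP1 to JR1 held 3 listed members of 6, side by side, and the array of AT1G60095 held 3 of 3. The 10-member array from AT1G52000 to AT1G52130, which holds MBP1 and MBP2, had AT1G52110 alone. JAL22 and JAL23 were 2 of 2, the array from AT5G49850 to AT5G49870 had 2 of 3, and AT5G35940 was listed without its neighbour AT5G35950. The pairs AT2G43730 and AT2G43740, and AT5G38540 and AT5G38550, held no listed member.

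Set side by side, 7 of the 14 members were over 2-fold lower in lbd16-2 on day 4, where 23.4% of the 2175 genes with values in all 4 libraries were. They were AT5G35940, AT2G25980, MLP-300B, JAL33, JAL22, JAL31 and JAL23. AT1G52110 and AT1G60095 were over 2-fold higher, 2 of 14, where 10.8% of all such genes were. Past 4-fold, AT5G35940, AT2G25980 and MLP-300B were lower, 3 of 14 where 6.99% of the 2175 genes were, and 0 of 14 were higher, where 3.31% were. The median difference of the members was -1.02 on the log2(normalised reads + 1) scale, against -0.17 for all 2175 genes, whose middle 50% lay between -0.93 and 0.40. Among the 12 members with at least 50 normalised reads on day 4 in either genotype, 7 were lower and 1 was higher, against 21% and 12% of the genes at that level. The 2175 genes were all listed in wild type, so genes high on day 4 in wild type are favoured among them, the members included. JAL22 and JAL23 were in the wild-type list alone, so nothing is read from their place among the 7. For 13 of the 14, with AT1G60110 as the exception, the interval of the day 4 ratio left out 1, as it did for 74.5% of the 2175 genes.

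**Figure D2:**
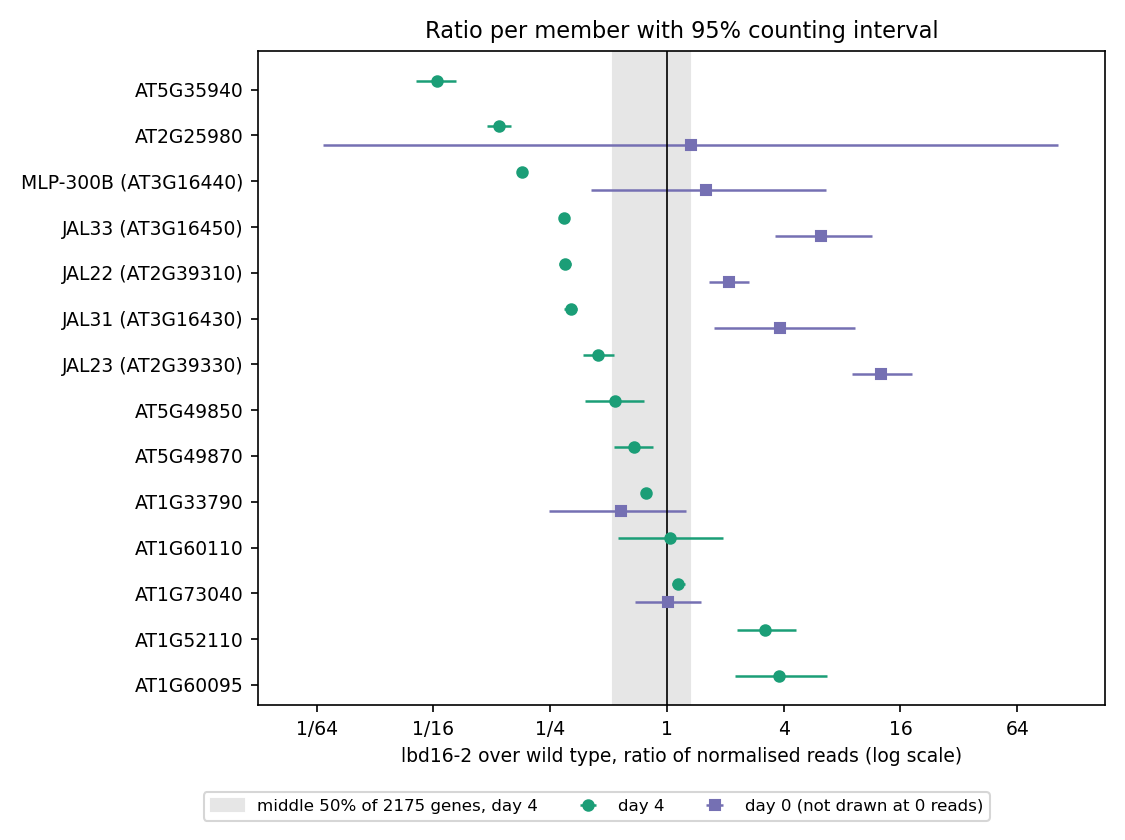
Ratio of normalised reads in lbd16-2 to wild type for the 14 members with values in both genotypes, on a log axis, with circles for day 4, squares for day 0, bars for 95% counting intervals and a grey band for the middle 50% of all 2175 genes on day 4. JAL22, JAL23, JAL31 and JAL33 lie left of 1 on day 4 and right of 1 on day 0.

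**Figure D3:**
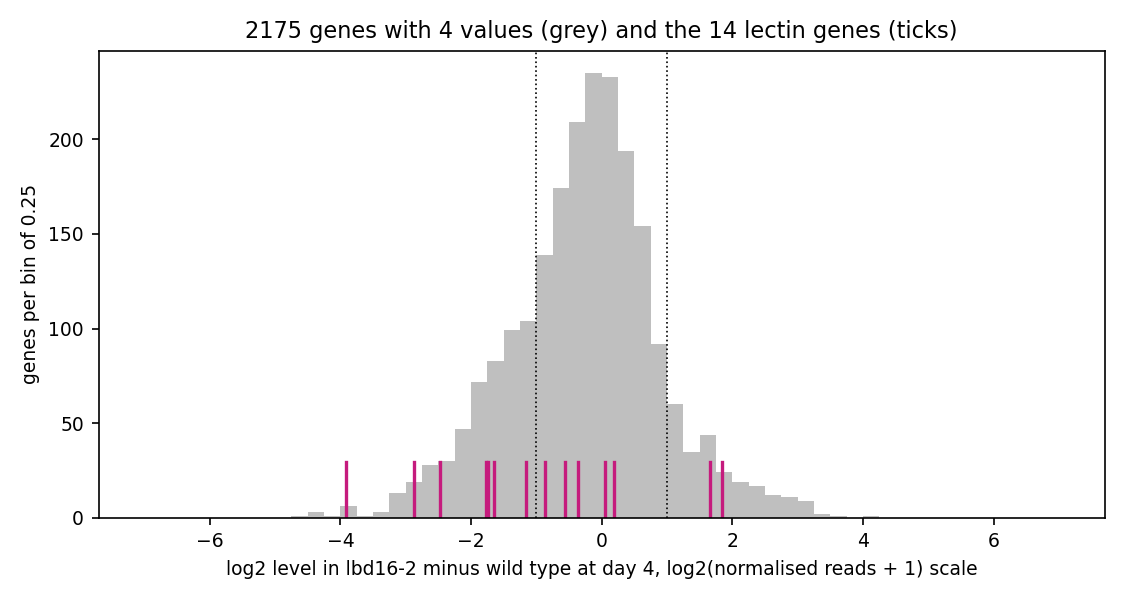
Histogram of the log2 level in lbd16-2 minus that in wild type on day 4 for 2175 genes, in bins of 0.25, with ticks at the 14 members and dotted lines at a 2-fold difference. Of the 14 ticks, 7 lie left of the lower line and 2 right of the upper one.

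Before culture the picture was the reverse for 4 genes. JAL23, JAL33, JAL31 and JAL22 were over 2-fold higher in lbd16-2 on day 0, 4 of 14 members where 18.8% of the 2175 genes were. AT5G49870 was over 2-fold lower on the deposited scale, where 8% were, but that is 0 reads in lbd16-2 against 3 in wild type, which this depth cannot tell apart. The day 0 ratios of lbd16-2 to wild type were 12.7 for JAL23, 6.23 (3.60 to 11.5) for JAL33, 3.84 (1.74 to 9.32) for JAL31 and 2.09 (1.65 to 2.65) for JAL22. The same 4 were over 2-fold lower on day 4, a combination found in 3.59% of the 2175 genes. The wild-type list favours genes that are low on day 0 and high on day 4 in wild type, which is this combination, and JAL22 and JAL23 were in that list alone. Of the 12 members in both lists, JAL31 and JAL33 had it, where 1.81% of all 1657 genes in both lists did. Shared genes whose mean reached 20 normalised reads were themselves higher in lbd16-2 on day 0, by 0.47 on the log2 scale, with an offset of -0.01 on day 4. Relative to that offset JAL22 was 0.59 higher and the other 3 were still over 1 higher. Taken as the difference between the libraries' medians over all shared genes, the day 0 shift had the opposite sign, at -0.12, and the day 4 shift was -0.07.

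The fold in lbd16-2 was smaller by over 2-fold for 7 of the 14 members, where 36.7% of the 2175 genes had such a difference, and larger by over 2-fold for 3, where 13.5% had. These 7 were the 7 genes over 2-fold lower on day 4. All 14 members were listed for a wild-type fold over 8, and for JAL22 and JAL23, listed in wild type and not in lbd16-2, the smaller fold restates the listing, so nothing is read from it. Among the 12 members in both lists, which passed the limit in each genotype, 5 had a smaller fold by over 2-fold, where 24.7% of the 1657 genes did. The difference in log2 fold was -4.78 for JAL23, -4.30 for JAL33, -3.43 for JAL31, -2.80 for JAL22 and -3.02 for MLP-300B on the deposited scale. With 0.5 reads added to each count for the interval, 6 of the 14 members had a counting interval wholly below 0, where 23.8% of the 2175 genes had, all 6 being among these 7. The exception, AT5G35940, had 1 read or none on day 0. AT2G25980, among the 6, also had only 1 read on day 0 in each genotype, and its interval ran from -6.56 to -0.016. The 3 with a larger fold were AT1G60095, AT1G52110 and AT5G49870, and each had 3 reads or fewer on day 0, with intervals that included 0. The authors' deposited table gives an FDR, a p-value adjusted for the number of genes, for each fold, though it compares 1 library with 1 and rests on no replicate spread. In the authors' deposited table it was under 0.05 for 2 of the 14 members of the lbd16-2 list, AT1G33790 and MLP-300B, where 8.97% of the list was. In the authors' deposited table it was under 0.05 for 6 of the 14 of the wild-type list, where 11.5% was, namely these 2 with AT2G25980, JAL31, JAL33 and AT5G35940. The difference between these 2 counts was not tested.

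Genes that work with these lectins were taken from a list of 13 genes of ER bodies and the PYK10 complex, of which 4 were listed. Of all genes tested, 9.18% entered the list in lbd16-2 and 8.91% in wild type. This and the later gene and marker lists were chosen with earlier results known, so nothing is read from their counts. PYK10 itself, in the wild-type list alone, had 13647 normalised reads on day 4 and 6705 on day 0 in lbd16-2, against 27820.3 on day 4 and 1484 on day 0 in wild type. Its fold was 2.04 (1.98 to 2.09) in lbd16-2 and 18.7 (17.9 to 19.6) in wild type. JAL22 was also in the wild-type list alone, so nothing is read from the likeness of their folds. The day 0 ratio of lbd16-2 to wild type was 4.52 (4.305 to 4.74) for PYK10, against 2.09 (1.65 to 2.65) for JAL22. BGLU21 and BGLU22, beta-glucosidases close to PYK10, had 1719.9 and 3494 normalised reads on day 4 in lbd16-2, against 8264 and 12482 in wild type, with 10 reads or fewer on day 0 in all libraries. Their day 4 ratios were 0.208 (0.200 to 0.217) and 0.280 (0.272 to 0.288). GLL22, a GDSL lipase-like protein of the complex, had 2559 normalised reads on day 4 in lbd16-2 and 4657 in wild type, a ratio of 0.549 (0.529 to 0.571), with 11.1 on day 0 in lbd16-2 and 13.3 in wild type. The 4 genes summed to 21420 normalised reads on day 4 and 6730.3 on day 0 in lbd16-2, against 53223 on day 4 and 1508 on day 0 in wild type. All 4 were in the wild-type list, which favours genes high on day 4 in wild type. The day 0 sums are nearly all PYK10: the day 0 ratios of lbd16-2 to wild type were 0.9496 (0.238 to 3.48) for BGLU21, 1.48 (0.539 to 4.11) for BGLU22 and 0.840 (0.372 to 1.82) for GLL22, with intervals that include 1. The other 9, among them NAI1, which encodes the transcription factor needed for ER bodies, and the ER body protein gene NAI2, were in no list.

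**Figure D4:**
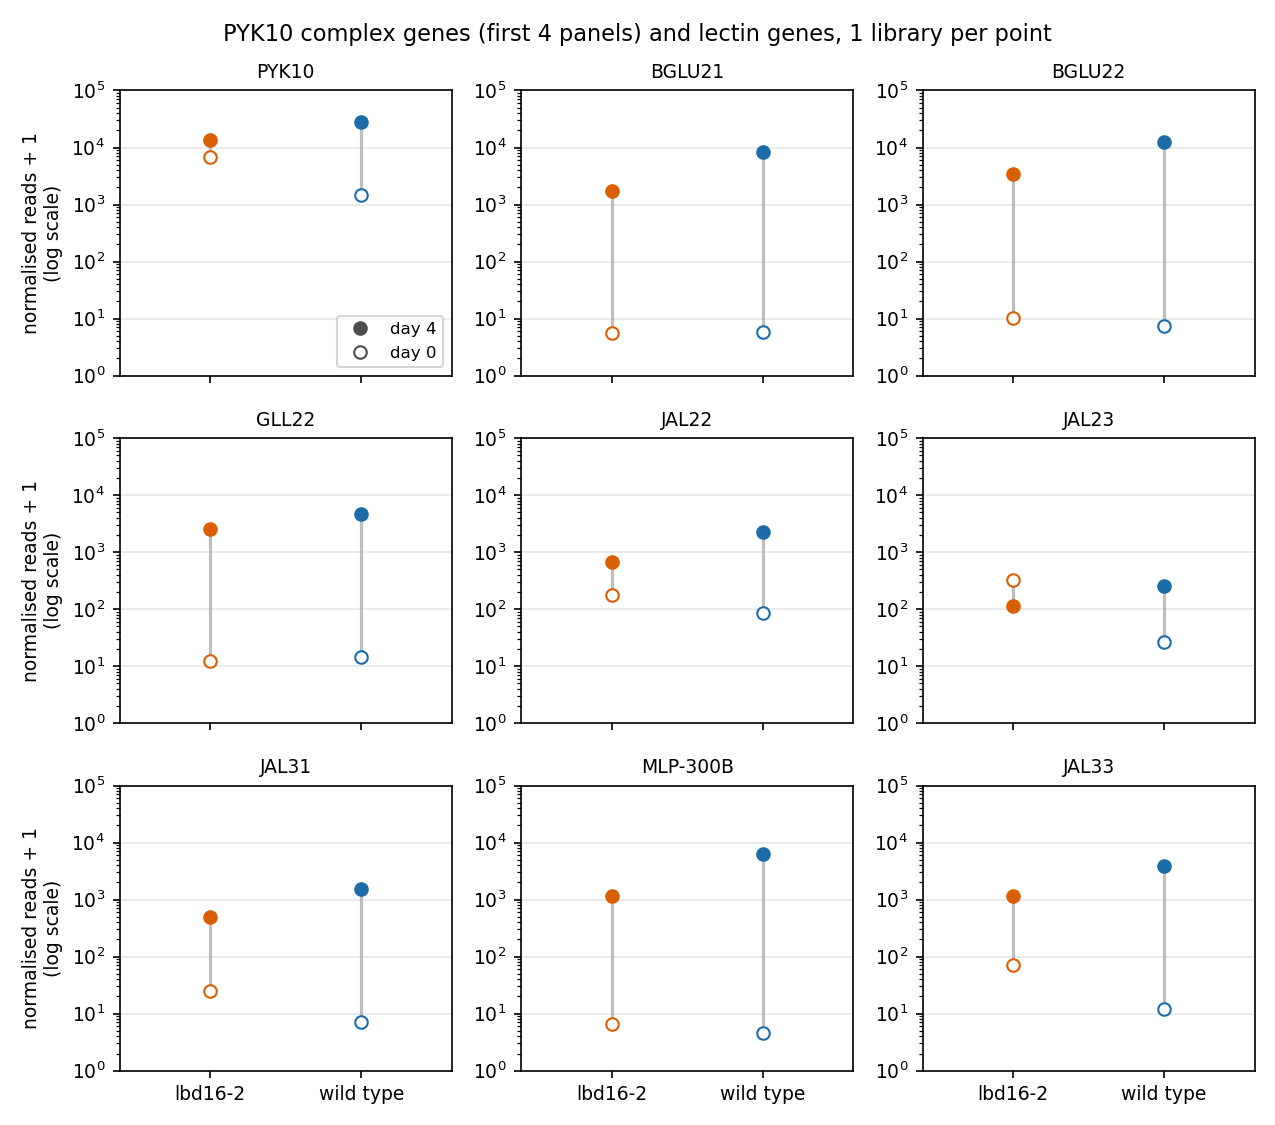
Normalised reads plus 1 on a log axis for the 4 listed PYK10 complex genes and 5 lectin genes, with lbd16-2 left of wild type in each panel; filled circles are day 4, open circles day 0, 1 library each. In lbd16-2 the day 0 circle of PYK10, JAL22, JAL23, JAL31 and JAL33 stands higher than in wild type, and the day 4 circle of all 9 genes lower. All 9 were in the wild-type list, which favours genes high on day 4 in wild type. Of the 2175 genes with 4 values, 58.3% were lower in lbd16-2 on day 4. The 5 lectin genes drawn are among the 7 members over 2-fold lower.

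Of 10 further genes with a jacalin domain, NSP3 and NSP4 were listed, in both genotypes. They encode nitrile-specifier proteins of glucosinolate breakdown and lie near PBP1 on chromosome 3, outside the array from PBP1 to JR1. NSP4 had 61.2 normalised reads on day 4 and 0 on day 0 in lbd16-2, against 433 on day 4 and 1.40 on day 0 in wild type, a day 4 ratio of 0.141 (0.114 to 0.174). NSP3 went the other way, with 99.9 normalised reads on day 4 and 4.64 on day 0 in lbd16-2, against 21.2 on day 4 and 0.698 on day 0 in wild type, a day 4 ratio of 4.71 (3.18 to 7.19). NSP3 and NSP4 therefore differed between genotypes in opposite directions on day 4. Of 11 glucosinolate breakdown genes 3 were listed, these 2 and the myrosinase gene TGG5, which had 4.16 normalised reads on day 4 in lbd16-2 and 73.6 in wild type, from 0 reads on day 0 in both. TGG5 was in the wild-type list alone, so nothing is read from its day 4 difference. Of 16 jasmonate synthesis and response genes JAZ10 was listed, at 834 normalised reads on day 4 and 94.6 on day 0 in lbd16-2, against 870.3 on day 4 and 69.8 on day 0 in wild type. Beside these counts, 9.18% of all genes tested were listed in lbd16-2 and 8.91% in wild type.

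Markers of other cells are set beside these values. Their counts below stand beside 9.18% of all genes tested listed in lbd16-2 and 8.91% in wild type. All 4 root cap markers (SMB, BRN1, BRN2 and FEZ) were listed, and they summed to 568 normalised reads on day 4 and 0.928 on day 0 in lbd16-2, against 1503 on day 4 and 1.40 on day 0 in wild type. BRN2 was in the wild-type list alone, so nothing is read from its day 4 difference. All 6 root hair and epidermis markers were listed, EXPA7, EXPA18, COBL9 and PRP3 in lbd16-2 alone. The remaining RHD6 and WER summed to 429 normalised reads on day 4 in lbd16-2 and 408 in wild type. Of 5 endodermis markers MYB36 was listed, at 8.32 normalised reads on day 4 in lbd16-2 and 12.0 in wild type, and 0 of 7 leaf photosynthesis markers were listed, so the leaf label could not be checked from these lists. The part of root cap RNA in the day 4 differences of the lectin genes was not tested. On day 0, where JAL22, JAL23, JAL31, JAL33 and PYK10 were higher in lbd16-2, FEZ, BRN2, RHD6 and MYB36 had 0 reads in both genotypes, SMB and WER had 0 in lbd16-2 against 2 and 1 in wild type, and BRN1 had 1 in lbd16-2 and 0 in wild type. Of the markers in the lbd16-2 list alone, COBL9 had 6 reads in lbd16-2 on day 0, the most of these markers, and EXPA7, EXPA18 and PRP3 had 0, with no wild-type value used here.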

How the data were processed

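RNA was sequenced from 4 libraries, 1 per genotype and day. The tools named, per the submitters' processing notes, were STAR, Cufflinks, DESeq, Trim Galore and FastQC, with TAIR10. The sources used here give no version, setting or use of strand. The authors deposited 4 tables of increased genes with levels and folds on a log2 scale, p-value and FDR columns, and a ratio of folds between genotypes. Total depth is unknown, because the tables hold listed genes only.

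The deposited levels were read as log2 of size-factor-scaled reads plus 1, an inference that no header states: undone that way, 100% of values per library were whole to within 0.05 reads. How many genes were tested, 24518 in lbd16-2 and 24442 in wild type, was inferred from the ratio of FDR to p-value, which is the number tested divided by a rank. These totals gave whole ranks for 54.4% of the genes used in lbd16-2 and 53.3% in wild type. The next best totals gave 4.25% and 4.96%. Intervals are exact binomial for ratios of 2 libraries, and normal on the log scale with 0.5 reads added for differences of log2 folds. Where a library had 0 reads, the fold was bounded with a floor of 3 reads there. The recovery of size factors and reads and the interval of the day 4 ratio were tested on simulated reads. The other steps were not tested that way. The software was Python 3.11.15, scipy 1.17.1 and Biopython 1.88.

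The members, the lists and the rule for named genes were chosen with earlier results of these data known. Full values were given for members with at least 50 normalised reads at day 4 or in a genotype-alone table, and AT1G60110, AT1G60095 and the genes of other lists were added by list. Gene names, lengths, coding sequences and upstream bases were taken from RefSeq's TAIR10.1 annotation, where all 39 loci matched; the deposited tables hold no coordinates. Levels per kilobase use all annotated exons. Protein identity is from global alignment with BLOSUM62, over aligned residues. Alternatives covered pseudocounts, limits, filters and scaling.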

Additional observations from a re-analysis of the deposited data

Results flagged for a closer look

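JAL23 was picked out because its level moved in opposite directions in the 2 genotypes. On the deposited log2 scale day 4 minus day 0 was -1.54 in lbd16-2 and 3.24 in wild type, a difference of -4.78, with 1 library per group and no test of the difference. Relative to the day offsets of the shared genes the difference was -4.30.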

How the results depend on the processing

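No paired analysis was possible because each group is 1 library, and for the same reason no library could be left out. With the authors' FDR under 0.05 as the limit, the members listed numbered 2 in lbd16-2 and 6 in wild type, in place of 14 each, and with at least 50 normalised reads at day 4 they numbered 8 in lbd16-2. The median log2 fold of the lbd16-2 members was 7.71 with a pseudocount of 0.1 and 4.03 with one of 5, with 8 of its 14 listed members at 0 reads at day 0, and that of the wild-type members was 7.28 and 4.42, with 2 of 14 at 0 reads. With a 4-fold limit, 3 members were lower and 0 higher in lbd16-2 at day 4, where 6.99% and 3.31% of the 2175 genes were. The median difference of log2 folds, -1.45, was -0.44 with a pseudocount of 0.1, -1.69 with one of 5 and -0.97 relative to the day offsets, alternatives chosen after the data were seen. For all 2175 genes the median difference was -0.57, and the middle 50% lay between -1.46 and 0.33, a range that holds -1.45. The difference was below 0 for 8 of the 14 members, where it was for 67.6% of the 2175 genes. The 7 members over 2-fold lower at day 4 numbered 7 with either pseudocount and with centring on the difference of library medians of the shared genes (-0.07 at day 4). The ratio of the summed members was 0.354 at day 4 and 1.94 at day 0 without JAL23, left out after the data were seen. No 2 listed members had proteins over 90% identical. At day 0, 7 of 14 members had 3 reads or fewer in each genotype, which limits what their day 0 ratios and folds can show.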
